A study of Mus musculus with 8 samples.

Results

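Teneurins, latrophilins and FLRT proteins are adhesion molecules that meet across the synaptic cleft. Their 10 genes, Tenm1 to Tenm4, Adgrl1 to Adgrl3 and Flrt1 to Flrt3, were followed in the hippocampus of mice that overexpressed miR-708-5p, a microRNA whose own gene lies inside Tenm4. The members were chosen by name, as the teneurin that hosts the microRNA, its 3 relatives and the families known to bind them, out of 40659 gene identifiers in the count table. All 10 members were among the 17252 genes that passed the filter on low counts, with 189 to 14739 reads per library. None was called between the groups, and the member with the lowest p-value, Adgrl2, was 11% lower in hp708, with a p-value that rose in some settings and dropped in others.

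The data are polyA-RNA sequencing libraries from whole hippocampi of 8 male wild-type C57BL/6JRj mice, 4 injected with the recombinant adeno-associated virus (rAAV) hp708 and 4 with hpCTL. The hp708 virus carries a hairpin that gives rise to miR-708-5p and hpCTL carries a control hairpin. Mice of both groups received bilateral stereotactic injections into the dorsal and the ventral hippocampus at postnatal week 7 to 8 and recovered for 4 weeks, and the labels place the tissue at week 12 to 13. The human synapsin promoter of the construct limits the hairpin to neurons, whereas the libraries hold RNA of all hippocampal cells, infected or not.

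Teneurins are large single-pass proteins that sit mainly on the presynaptic side, and their extracellular part binds latrophilins, which are adhesion G protein-coupled receptors. FLRTs, leucine-rich repeat proteins, bind the latrophilins at another site and also bind Unc5 receptors. Latrophilins, teneurins and FLRTs together set which axons contact which dendrites, and in the hippocampus teneurin 3 and latrophilin 2 are known for opposing patterns in the connection from CA1 to the subiculum.

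Mir708, the gene of the microRNA precursor, lies at chr7:95898631-95898739 on the plus strand of GRCm39, in intron 1 of the 33-exon canonical transcript of Tenm4, and shares no base with a Tenm4 exon. It had 0 counts in all 8 libraries, and polyA libraries do not measure the mature microRNA, so its level was not seen here. The mature microRNA is shown with its seed, bases 2 to 8, in capitals, because the seed decides which 3'UTRs can pair with it. Its sequence is from RefSeq.
miR-708-5p: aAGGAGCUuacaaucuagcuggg

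The letters that pair with this seed were searched on the transcript strand of the longest annotated 3'UTR of each member, as AGCTCCTA (8mer), AGCTCCT (7mer-m8) and GCTCCTA (7mer-A1), the first of which contains the other two. Tenm3, Adgrl1, Adgrl3 and Flrt1 had such a site, all of the 7mer-m8 kind, and Adgrl1 had 2. The 5 sites are printed because they are the only canonical matches among the members, 22 bases each on the strand of the gene, with the letters that pair with the seed in capitals. They lie in GRCm39 at chr8:48680030-48680051 on the minus strand (Tenm3), chr8:84666284-84666305 and chr8:84667896-84667917 on the plus strand (Adgrl1, in this order), chr5:81943083-81943104 on the plus strand (Adgrl3) and chr19:7070845-7070866 on the minus strand (Flrt1).
Tenm3: accggaagttaAGCTCCTgtaa
Adgrl1 first site: actttctctgaAGCTCCTttct
Adgrl1 second site: gtggggtgaggAGCTCCTcggg
Adgrl3: gctaactgctgAGCTCCTcctg
Flrt1: agaaggggtccAGCTCCTgata

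The host gene Tenm4 had none of these letters in its 3'UTR of 4502 bases, and neither did Tenm1, Tenm2, Adgrl2, Flrt2 or Flrt3. A site was thus present in 4 of 10 members (40%), and in 3927 of the 14808 tested genes with an annotated 3'UTR (26.5%). The members' 3'UTRs were longer, with a median of 3155.5 bases against 1865 bases. A match of these letters is a description of the sequence and does not show binding.

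Sequencing depth was 22606824 to 28462428 counts per library. Values are given as CPM, counts scaled to the library size, and each library is named by its group and replicate number. For 3 libraries a limit has to be given first. The mouse of hp708 replicate 1, animal 1602, carries the other group name, hpCTL, in source data of the study, and it was kept as the sample labels give it. In hpCTL replicate 1 and hp708 replicate 2, long transcripts had fewer reads: the median deviation of log2 CPM from the mean of the 8 libraries was lower in the longest than in the shortest sixth of protein-coding genes, by -0.33 and -0.17, while this difference was 0.014 to 0.18 in the other 6 libraries. Markers of CA1, CA2, CA3, dentate gyrus, interneurons, glia and endothelium were all detected, as the labelled tissue would hold them, and choroid plexus markers ranged from 1.96 to 7.17 mean log2 CPM over the libraries of both groups. The libraries are from separate animals, so the p-values rest on the spread between mice. In fits with surrogate variables, terms estimated from the same libraries, they rest on the spread left after those terms are removed.

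In the fit of all 17252 genes with edgeR's quasi-likelihood test and 3 surrogate variables, which are estimated terms for unknown variation, 0 of the 10 members passed a false discovery rate (FDR) of 0.05, with FDR between 0.525 and 0.965. Of all tested genes, 1 was called at this threshold (0.00580%). At an unadjusted p-value below 0.05, 1 of 10 members (Adgrl2, lower in hp708) was counted, against 7.70% of all tested genes, 4.87% lower and 2.82% higher in hp708. Fold changes were positive for 6 members and negative for 4, with a median log2 fold change of 0.032 for the members and -0.0091 for all tested genes. The groups overlapped in CPM for each of the 10 members, whereas 1.51% of all tested genes did not overlap.

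**Figure D1:**
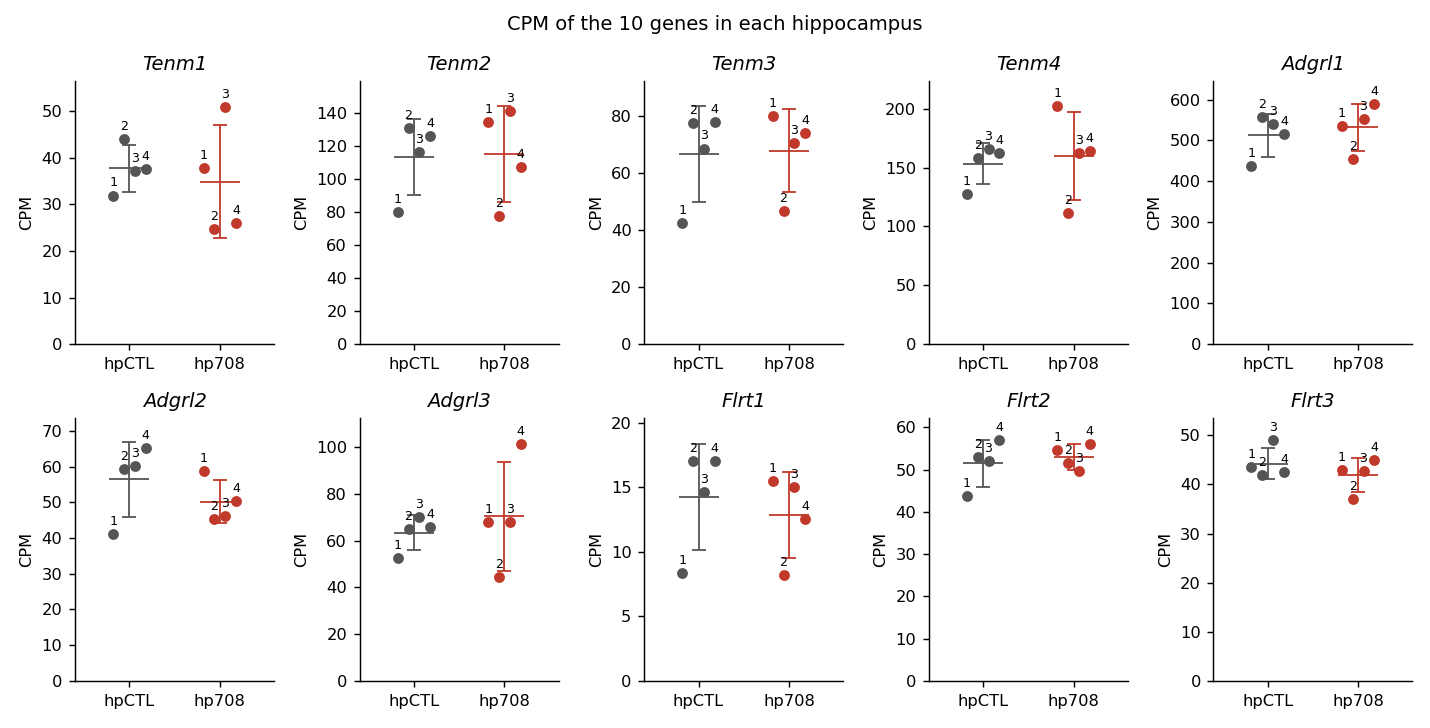
CPM of each of the 10 genes (vertical axis, from 0) in the 4 hpCTL and 4 hp708 hippocampi. Points are libraries numbered by replicate, and lines are the mean ± SD of each group. The groups overlap in every panel, and hpCTL replicate 1 or hp708 replicate 2 is the lowest point of each.

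Among the teneurins, the host gene Tenm4 (ENSMUSG00000048078, chr7:95820453-96560300, plus strand) had 127, 158, 165 and 162 CPM in hpCTL replicates 1 to 4 and 202, 111, 162 and 164 CPM in hp708 replicates 1 to 4. The highest and the lowest of the 8 values were both in hp708. The group means were 153 ± 17.7 and 160.0 ± 37.5 CPM (SD, n = 4 each), and the fitted log2 fold change was 0.11 (standard error 0.062, 95% interval -0.036 to 0.25, FDR 0.734 in edgeR's test). Exons of Tenm4 share 4.71% of their bases with C230038L03Rik on the opposite strand, and whether the counting used strand is not given in the sources used here.

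Tenm3 (ENSMUSG00000031561, chr8:48678708-49296986, minus strand), which marks proximal CA1 and distal subiculum, had 42.6, 77.7, 68.7 and 78.2 CPM in hpCTL and 80.1, 46.9, 70.8 and 74.2 CPM in hp708. In each group 1 library was low and the other 3 lay close together. Its means, 66.8 ± 16.7 and 68.0 ± 14.6 CPM (SD, n = 4 each), differed by far less than this spread, with a log2 fold change of 0.051 (standard error 0.057, edgeR FDR 0.874).

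Tenm2 (ENSMUSG00000049336, chr11:35897483-37126791, minus strand), a ligand of latrophilin 1, had 80.2, 131, 116 and 126 CPM in hpCTL and 135, 77.8, 141 and 107 CPM in hp708. The same low libraries stood out as for Tenm3. Its log2 fold change was 0.075 (standard error 0.085, edgeR FDR 0.876).

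Tenm1 (ENSMUSG00000016150, chrX:41616743-42518044, minus strand), the X-linked family member, had 31.9, 44.1, 37.2 and 37.7 CPM in hpCTL and 37.9, 24.7, 50.9 and 26.1 CPM in hp708. Here the hp708 libraries split, with replicates 2 and 4 below and replicate 3 above every hpCTL value. Its log2 fold change of -0.045 had the widest interval of the 10 genes, -0.45 to 0.37 (standard error 0.17, edgeR FDR 0.965). Its exons share 8.24% of their bases with Sh2d1a on the opposite strand.

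Among the latrophilins, Adgrl2 (ENSMUSG00000028184, chr3:148518957-148696229, minus strand), which encodes latrophilin 2, had 41.2, 59.3, 60.1 and 65.1 CPM in hpCTL and 58.6, 45.4, 46.1 and 50.5 CPM in hp708. Of the hpCTL libraries 3 lay above every hp708 library, and hpCTL replicate 1 lay below all of them, so the groups overlapped. The means were 56.4 ± 10.5 and 50.2 ± 6.08 CPM (SD, n = 4 each). The fitted log2 fold change was -0.17 (standard error 0.051, 95% interval -0.29 to -0.049), with an unadjusted p of 0.0123 and an FDR of 0.525 in edgeR's test. An exact two-sided permutation test on the log2 CPM of the 8 libraries gave p = 0.371, where 0.0286 is the smallest value that 4 against 4 allows. This was the lowest of the 10 permutation p-values, the others lying between 0.486 and 0.971. Without surrogate variables the log2 fold change was also -0.17, and its unadjusted p was 0.257. Adgrl2 is the single member of its family with no seed site in the 3'UTR searched.

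Adgrl1 (ENSMUSG00000013033, chr8:84626588-84668583, plus strand), which encodes latrophilin 1, a receptor of alpha-latrotoxin, had 437, 557, 539 and 516 CPM in hpCTL and 534, 453, 552 and 589.9 CPM in hp708. The lowest library of each group was again hpCTL replicate 1 and hp708 replicate 2. With 2 seed sites it had the most of the 10 genes, and its log2 fold change was 0.043 (standard error 0.048, 95% interval -0.069 to 0.16, edgeR FDR 0.874). Of its exon bases 12.7% are shared with Gm10644 on the opposite strand, the highest such share among the 10 genes.

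Adgrl3 (ENSMUSG00000037605, chr5:81167344-81972980, plus strand), which encodes latrophilin 3, the partner of FLRT3 and Unc5 receptors, had 52.8, 65.1, 70.2 and 65.7 CPM in hpCTL and 67.8, 44.4, 68.0 and 101 CPM in hp708. Both the lowest and the highest value were in hp708. This 2.28-fold range over the 8 libraries was the widest of the 10 genes, and the log2 fold change was 0.10 (standard error 0.13, edgeR FDR 0.888). Its exons share 7.43% of their bases with Gm16054 on the opposite strand.

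Among the FLRTs, Flrt1 (ENSMUSG00000047787, chr19:7069366-7143464, minus strand) had 8.32, 17.1, 14.6 and 17.0 CPM in hpCTL and 15.5, 8.22, 15 and 12.6 CPM in hp708. The lowest library of each group had nearly the same value. The log2 fold change was -0.10 (standard error 0.11, edgeR FDR 0.867). Exons of Macrod1 on the opposite strand share 3.65% of its exon bases.

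Flrt2 (ENSMUSG00000047414, chr12:95658740-95752360, plus strand), a ligand of Unc5d, had 43.8, 53.1, 52.1 and 57.0 CPM in hpCTL and 54.8, 51.5, 49.7 and 56.2 CPM in hp708. Apart from hpCTL replicate 1 the values of both groups intermingled. It had the narrowest range of the 10 genes, 1.30-fold, and a log2 fold change of 0.022 (standard error 0.050, edgeR FDR 0.943).

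Flrt3 (ENSMUSG00000051379, chr2:140492834-140513396, minus strand), a postsynaptic ligand of latrophilin 3, had 43.6, 42.0, 49.0 and 42.5 CPM in hpCTL and 42.8, 37.0, 42.8 and 45.0 CPM in hp708. It differed from the rest in that hpCTL replicate 1 was not low. Its log2 fold change was -0.069 (standard error 0.063, edgeR FDR 0.840).

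The 4 members with a seed site had a median log2 fold change of 0.047 and the 6 without one -0.011. Over all tested genes with a 3'UTR the medians were 0.0014 with a site and -0.015 without. None of the 4 genes with a site had an unadjusted p below 0.05, and 3 of them had positive fold changes.

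Levels were compared between genes per kilobase of exon, on the scale of CPM per kilobase. The exon length was the union of all annotated exons of a gene. It was 8733 bases for Adgrl1, 19786 for Adgrl2 and 21333 for Adgrl3, and the shares and the order depend on this choice. Adgrl1 was highest at 58.7 ± 6.05 in hpCTL and 60.9 ± 6.60 in hp708 (SD, n = 4 each) and made up 90.2% to 92.2% of the latrophilin sum in each library. It was 5.14 to 7.65 times the level of Tenm2, the next gene, and these were the only neighbours in the order whose ranges lay apart.

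Below Adgrl1, the mean over 8 libraries was 9.95 for Tenm2, 8.84 for Flrt3, 7.44 for Tenm4, 5.81 for Flrt2 and 5.11 for Tenm3 CPM per kilobase. Flrt2 exceeded Tenm3 in 8 of 8 libraries, while Tenm2 exceeded Flrt3 in 6, Flrt3 exceeded Tenm4 in 7 and Tenm4 exceeded Flrt2 in 7. The lowest means were 3.14 for Adgrl3, 2.69 for Adgrl2, 2.16 for Flrt1 and 2.04 for Tenm1 CPM per kilobase. Tenm3 exceeded Adgrl3 in 8 libraries, Adgrl3 exceeded Adgrl2 in 6, Adgrl2 exceeded Flrt1 in 7, and Flrt1 exceeded Tenm1 in 5, so the last 2 could not be ordered.

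Within families, Tenm2 supplied 38.6% to 43.6% and Tenm4 27.3% to 33.5% of the teneurin sum, and Flrt3 supplied 49.1% to 59.1% of the FLRT sum. Family sums did not separate the groups. The teneurin sum was 24.3 ± 4.27 CPM per kilobase in hpCTL and 24.8 ± 5.64 in hp708 (SD, n = 4 each, exact permutation p = 0.971 on the log2 scale), the latrophilin sum 64.5 ± 6.82 and 66.8 ± 7.74 (exact permutation p = 0.600), and the FLRT sum 17.1 ± 1.35 and 16.5 ± 1.32 (exact permutation p = 0.514).

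**Figure D2:**
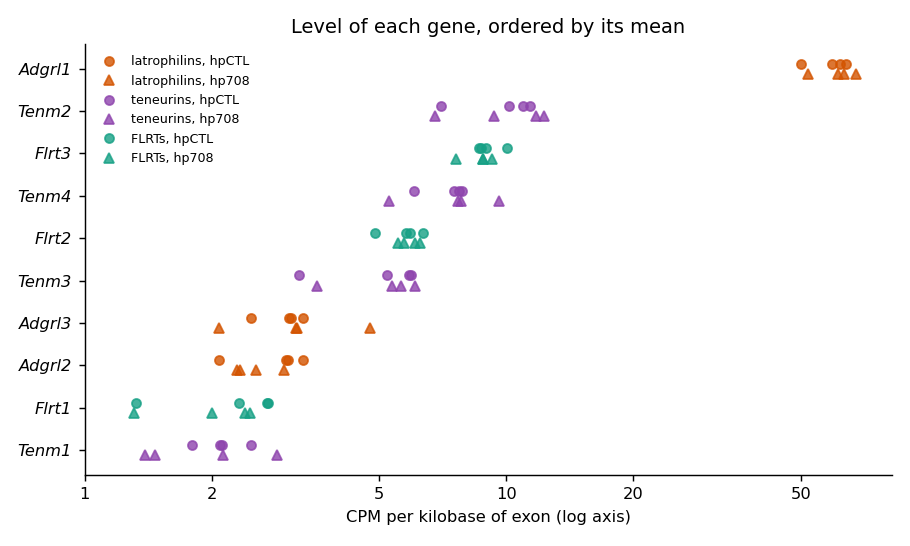
Level of each gene in CPM per kilobase of exon (horizontal log axis), ordered by the mean of the 8 libraries. Circles are hpCTL and triangles hp708 libraries, coloured by family. Adgrl1 stands apart at 50.1 to 67.6, and the ranges of all other neighbours overlap.

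All 10 members had their lowest CPM in hpCTL replicate 1 or hp708 replicate 2, the libraries with fewer reads from long transcripts. The same held for 37.7% of all tested genes, for 62.9% of the protein-coding genes of the longest sixth, and for 13 of the 17 genes in a list of further binding partners and scaffolds. The 4 teneurins, Adgrl2 and Adgrl3 belong to that longest sixth, with 11474 to 21333 exon bases. Flrt1, Tenm2 and Tenm3 deviated most in hpCTL replicate 1, by -0.65, -0.48 and -0.63 on the log2 scale. In hp708 replicate 2 Flrt1 deviated by -0.66, Adgrl3 by -0.55 and Tenm2 by -0.52. The medians of the longest sixth were smaller in size, -0.13 in hpCTL replicate 1 and -0.067 in hp708 replicate 2. Flrt1 has 6280 exon bases and lies in the sixth from 6181 to 7992 bases. The medians of that sixth were -0.011 in hpCTL replicate 1 and -0.0069 in hp708 replicate 2. Markers of oligodendrocytes, all 4 detected, were also highest in hp708 replicate 2, at 9.46 mean log2 CPM, while the 3 remaining hp708 libraries ranged from 8.54 to 9.04 and the hpCTL libraries from 8.55 to 8.96. Their summed level was 3512 to 4719 CPM in hpCTL and 3573 to 6641 CPM in hp708, and the part of tissue composition in the members' low values was not tested.

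**Figure D3:**
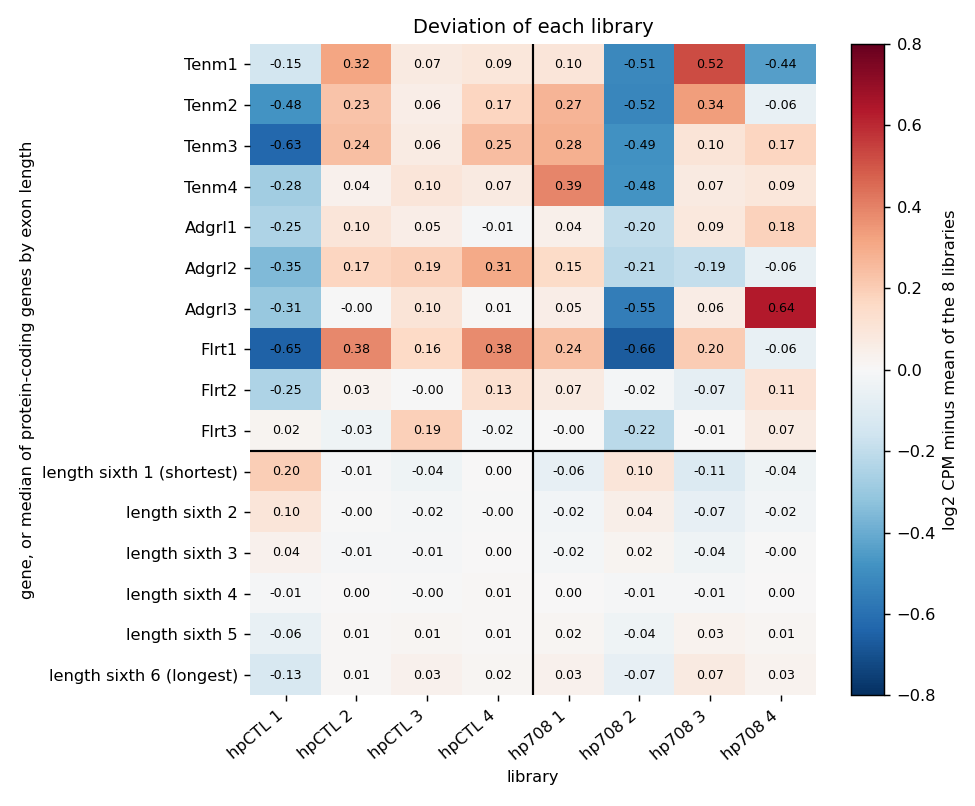
Deviation of log2 CPM from the mean of the 8 libraries (colour and printed value) for the 10 genes above the line and, below it, the median of protein-coding genes in 6 bins of exon length. Each gene is lowest in hpCTL replicate 1 or hp708 replicate 2, where the bins run from positive in the shortest to negative in the longest.

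Because 1 of these libraries was in each group, a fit with the length difference of each library as a covariate in place of the surrogate variables was added after the data were seen. In it all 10 log2 fold changes were negative, among them -0.26 for Adgrl2 (unadjusted p = 0.0408 in edgeR's test) and -0.40 for Flrt1 (unadjusted p = 0.0112), and the FDR was 0.999 for both. These were 2 of 10 members, against 2.84% of all genes tested in that fit. With both libraries left out and no surrogate variables, Adgrl2 had a log2 fold change of -0.25 (unadjusted p = 0.0306, edgeR FDR 0.941), the single member below 0.05 where 4.34% of all genes were.

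The library with conflicting group names was left out in turn, as was each of the others. Without hp708 replicate 1, edgeR's test with 3 surrogate variables, which left 2 residual degrees of freedom, gave 5 of 10 members an unadjusted p below 0.05, all lower in hp708, against 12.2% of the 17425 genes tested there, 6.72% lower in hp708. The 5 were Flrt1 with a log2 fold change of -0.49 (unadjusted p = 0.0152), Tenm1 with -0.43 (unadjusted p = 0.00674), Adgrl2 with -0.32 (unadjusted p = 0.000928), Tenm2 with -0.27 (unadjusted p = 0.0379) and the host gene Tenm4 with -0.16 (unadjusted p = 0.0494). The smallest FDR among them was 0.0864, for Adgrl2. Without that library and without surrogate variables, 0 of 10 members had an unadjusted p below 0.05, against 3.42% of all genes.

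The directions differed when another library was left out of the same fit with 3 surrogate variables. Without hp708 replicate 2, 4 members had an unadjusted p below 0.05, against 12.0% of all genes, and 3 of them were higher in hp708. These were Adgrl3 with a log2 fold change of 0.30 (unadjusted p = 0.00127 in edgeR's test), Tenm4 with 0.20 (unadjusted p = 0.0235) and Tenm3 with 0.13 (unadjusted p = 0.0278), while Tenm1 was lower with -0.20 (unadjusted p = 0.0497). The host gene Tenm4 thus had an unadjusted p below 0.05 in opposite directions, lower without hp708 replicate 1 and higher without hp708 replicate 2, and it was also higher without the filter on low counts, by 0.18 (unadjusted p = 0.0373). Without hpCTL replicate 1, 3 members were counted, all lower in hp708, against 9.67% of all genes, and without hp708 replicate 3 there were 3, of which 2 were lower and Adgrl3 was higher, against 8.02%. Without hp708 replicate 4 there was 1, Adgrl2, lower by -0.18 (unadjusted p = 0.0135 in edgeR's test), against 8.46% of all genes, and without hpCTL replicate 2 there was 1, Tenm3, higher by 0.20 (unadjusted p = 0.0364), against 7.04%. Without hpCTL replicate 3 or 4 there were 0, against 2.98% and 6.09% of all genes.

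**Figure D4:**
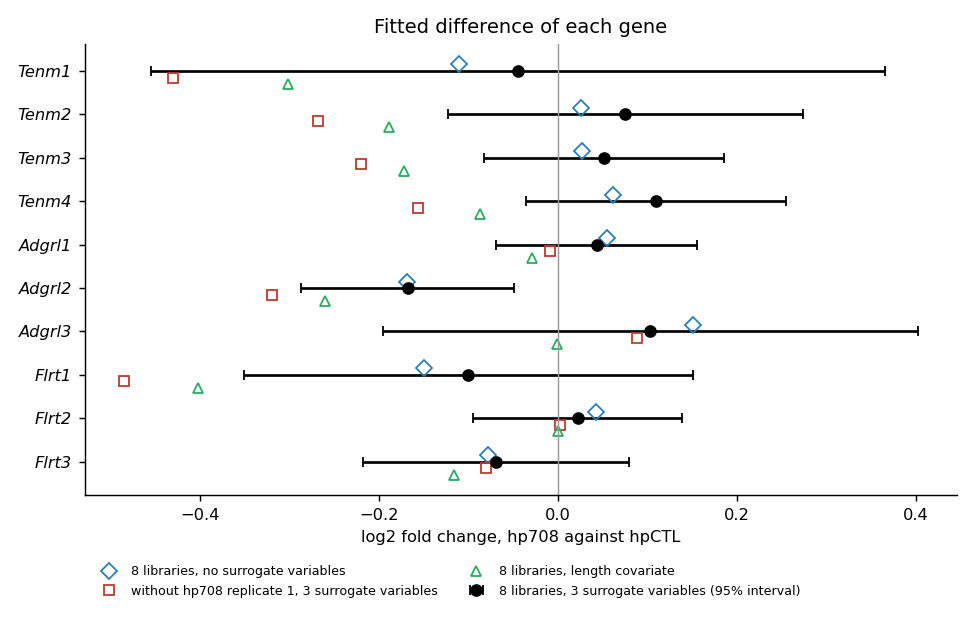
Log2 fold change of each gene, hp708 against hpCTL (horizontal axis), in 4 fits. Filled circles with bars are the fit of 8 libraries with 3 surrogate variables and its 95% interval, and open symbols are the other fits. Only the interval of Adgrl2 leaves out 0, and only Adgrl2, Tenm1, Flrt1 and Flrt3 are negative in all 4 fits.

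All 10 members were negatively related to the CA3 pyramidal marker list, with Pearson's r between -0.448 and -0.877 over the 8 libraries. The list was highest in hp708 replicate 2 (4.55 mean log2 CPM) and hpCTL replicate 1 (4.34), the libraries with fewer reads from long transcripts. Each member had its lowest value in hpCTL replicate 1 or hp708 replicate 2. The CA3 markers were not uniform in hp708 replicate 2. Cdh24, Coch and Iyd were highest there and Bok was not. Grik4 was lowest there, at 55.3 CPM against 66.9 to 84.5 CPM in the other libraries. For Adgrl2, log2 CPM and the mean log2 CPM of 5 CA3 pyramidal markers had Pearson's r = -0.844 (exact permutation p = 0.00977) and Spearman's rho = -0.952 (exact permutation p = 0.00114). Over the 40 relations computed, of 10 members with 4 lists, the Benjamini-Hochberg adjusted values were 0.195 for r and 0.0456 for rho. Without hp708 replicate 2 and hpCTL replicate 4, the libraries farthest from the median of the list, r was -0.839 (n = 6). Flrt1 had the larger r with the same list, -0.877 (exact permutation p = 0.00184, adjusted 0.0734), and a smaller rho, -0.810 (exact permutation p = 0.0218, adjusted 0.436), and its r was -0.766 without those 2 libraries. No relation passed 0.05 after adjustment by r, and by rho that of Adgrl2 was the only one. With hpCTL replicate 1 and hp708 replicate 2 left out, which was chosen after the data were seen, r with the CA3 list was -0.808 for Adgrl2 and -0.710 for Flrt1 (n = 6), and between -0.256 and 0.661 for the remaining 8 members. Within groups, r for Adgrl2 was -0.9999 in hpCTL and -0.562 in hp708 (n = 4 each), given as values only.

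No region list passed the test between the groups. The marker lists were chosen with earlier results of these data known, so the counts that follow are not independent evidence. All 5 CA3 markers, Bok, Cdh24, Grik4, Coch and Iyd, had positive log2 fold changes, 3 of them with an unadjusted p below 0.05 in edgeR's test, where 2.82% of all tested genes were higher at that threshold and 8076 of 17252 had positive log2 fold changes, and their summed level was 135 to 188 CPM in hpCTL and 157 to 205 CPM in hp708. Their mean log2 CPM was higher in hp708 by 0.25 (exact permutation p = 0.114, adjusted over 14 lists 0.560). The 4 CA2 markers, for which no relation to the members was computed, also all had positive log2 fold changes, with a difference of 0.30 in mean log2 CPM (exact permutation p = 0.143, adjusted 0.560). All 6 subiculum markers, among them Slc17a6 and Nts, had negative log2 fold changes, 2 of them with an unadjusted p below 0.05, where 4.87% of all tested genes were lower at that threshold, and their summed level was 183 to 263 CPM in hpCTL and 164 to 241 CPM in hp708.

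The mean log2 CPM of the subiculum list differed by -0.60 (exact permutation p = 0.0857, adjusted 0.560), and by -0.83 without hp708 replicate 1. In that library it was 4.42, against 4.38 to 4.43 in hpCTL replicates 2 to 4 and 3.15 to 3.76 in hp708 replicates 2 to 4. The CA3 list in the same library was 4.17, against 4.18 and 4.24 in hp708 replicates 3 and 4. It was 3.87 to 3.96 in hpCTL replicates 2 to 4. Adgrl2 and the subiculum list had r = 0.619 (exact permutation p = 0.105, adjusted 0.592) and rho = 0.643 (exact permutation p = 0.0962, adjusted 0.570), and r was 0.810 without hp708 replicates 2 and 4. None of these markers was at 0 in all libraries. The part of regional composition in the Adgrl2 values was not tested, and in whole hippocampi fewer cells of a type and less RNA per cell cannot be told apart.

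**Figure D5:**
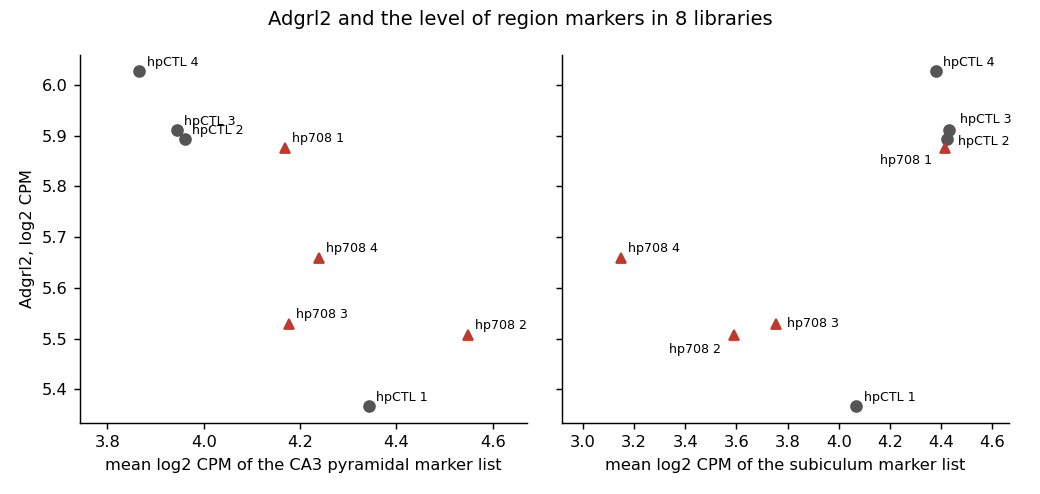
Log2 CPM of Adgrl2 (vertical axis) against the mean log2 CPM of the CA3 pyramidal markers (left) and of the subiculum markers (right). Points are libraries, circles hpCTL and triangles hp708. Adgrl2 is lower where CA3 markers are higher, r = -0.844, as the other 9 genes also were with r from -0.448 to -0.877, and the libraries low in long transcripts, hp708 replicate 2 and hpCTL replicate 1, lie farthest right on that axis. The point of hp708 replicate 1 lies beside hpCTL replicates 2 to 4 on the subiculum axis. On the CA3 axis it lies beside hp708 replicates 3 and 4, above hpCTL replicates 2 to 4.

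The genes most like each of 3 members over the 8 libraries were found among 17251 others by Pearson's r of log2 CPM, as a description. Among the genes most like Adgrl2 were Zfp982 (r = 0.97, at 0.214 to 0.652 CPM) and Deptor (r = 0.96). Tenm4 was most like Arnt2, Cdh4 and Kif1a (r = 0.97 each), and Tenm3 most like Xylt1, Ndor1 (r = 0.99 each) and Gm42979 (r = 0.98). Among the members themselves r was highest for Flrt1 with Tenm2 (0.96) and lowest for Flrt2 with Tenm1 (-0.034). All of these points share the low libraries hpCTL replicate 1 and hp708 replicate 2.

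A list of 17 further genes held binding partners of the members (among them Unc5a to Unc5d, Fgfr1, Robo1, Nrxn2, Nrxn3, Cntn6 and Dag1), the related receptor Adgrl4 and postsynaptic scaffolds (Shank1 to Shank3, Dlg4). Of these, 0 passed an FDR of 0.05, with a lowest FDR of 0.533, while 16 had positive log2 fold changes and 1 a negative one, against 8076 positive of 17252 over all tested genes. At an unadjusted p below 0.05, 6 of 17 were counted, all higher in hp708, against the 2.82% of all tested genes given above. The groups overlapped in CPM for each of the 17. This list, too, was chosen with earlier results of these data known, so its counts are not independent evidence.

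The scaffold Shank1, which anchors latrophilins in the postsynaptic density, had the highest log2 fold change, 0.22 (standard error 0.066, unadjusted p = 0.013 in edgeR's test). It had 311, 535, 459 and 515 CPM in hpCTL and 545, 417, 560.3 and 615 CPM in hp708, so that the lowest library of each group was the one that was low for the members. Shank2 had a log2 fold change of 0.18, Shank3 of 0.15 and Dlg4, which encodes PSD-95, of 0.12.

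Of the axon guidance receptors, Unc5d, a receptor of Flrt2, had a log2 fold change of 0.22 (unadjusted p = 0.0347 in edgeR's test) and 20.4, 29.2, 26.9 and 24.0 CPM in hpCTL against 30.8, 22.3, 31.9 and 30.9 in hp708. In hp708, 3 of 4 libraries lay above every hpCTL value. Robo1, which binds Flrt3, had a log2 fold change of 0.17 (unadjusted p = 0.0149 in edgeR's test). The lowest log2 fold change of the list was that of Cntn6, an adhesion protein that binds latrophilin 1, at -0.50 (standard error 0.25, unadjusted p = 0.0874), with 5.93, 8.09, 8.78 and 6.53 CPM in hpCTL and 7.5, 5.13, 5.03 and 2.81 CPM in hp708.

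The partner counts at an unadjusted p below 0.05 changed with the libraries. Without hp708 replicate 1, the library with conflicting group names, there were 4, with 2 in each direction, against 12.2% of all genes. There were 7 without hpCTL replicate 2 (all higher, against 7.04%) and 4 without hp708 replicate 4 (all higher, against 8.46%). There were 9 without hp708 replicate 2 (8 higher and 1 lower, against 12.0%) and 2 without hpCTL replicate 4 (1 higher and 1 lower, against 6.09%). Without hpCTL replicate 1 there was 1, lower in hp708 (against 9.67%), without hp708 replicate 3 there was 1, higher (against 8.02%), and without hpCTL replicate 3 there were 0 (against 2.98%). None of the 17 partner genes was counted in the 8 libraries without surrogate variables, where 1.81% of all genes were, or with the length covariate, where 2.84% were. With both libraries low in long transcripts left out and no surrogate variables, 5 were counted, all higher in hp708, against 4.34% of all genes, and with hp708 replicate 2 alone left out and no surrogate variables, 4 were, also all higher, against 3.21%.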

How the data were processed

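PolyA-RNA of hippocampi was sequenced by the authors after a TruSeq mRNA protocol. The reads were mapped to GRCm39 with STAR 2.7.8a and counted per gene with featureCounts 1.6.4, and the authors deposited raw counts, without normalization, in 1 table. The submitters' processing notes also list edgeR 3.32.1. Strand and multi-mapping settings are not given in the sources used here. Of 40659 gene identifiers 39637 were named from GENCODE annotation of the same build in a later release, which also gave positions and exon lengths, and 1022 kept their identifier. The miRNA sequence was from a RefSeq table of GRCm38.p6.

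From these counts, genes kept by edgeR's filterByExpr were tested with edgeR 4.0.16 in R 4.3.3 by the quasi-likelihood test, with TMM normalization, 3 surrogate variables (svaseq, sva 3.50.0) and Benjamini-Hochberg adjustment over 17252 genes. The study names a quasi-likelihood and a likelihood ratio test in different places, and the second was an alternative, as was DESeq2 1.42.0. Log2 CPM used a prior count of 2. For single values an exact two-sided permutation test was run, with 70 permutations for 4 against 4 libraries. Libraries of a group differed by a chi-square per degree of freedom of 10.0 to 46.2 over genes with at least 20 counts, so none was a copy. The fit was tested on simulated counts.

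The members, partner list and marker lists were chosen with earlier results of these data known. Genes named are the 10 members, Mir708, partners with an unadjusted p below 0.05 or the highest or lowest log2 fold change, and the 3 genes most like Tenm4, Tenm3 and Adgrl2. Sh2d1a, Macrod1, C230038L03Rik, Gm10644 and Gm16054 are named for their exon overlap. A few genes that these rules name are not reported here, and they stay within the counts over the lists.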

Additional observations from a re-analysis of the deposited data

Results flagged for a closer look

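Of 80 groups of 4 libraries examined (genes and marker lists in hpCTL and in hp708), 6 held 1 library far from the other 3 by Dixon's criterion at 95%, where chance gives about 4. None of the 10 members was among them. The partner gene Unc5d was 22.3 CPM in hp708 replicate 2 where the remaining hp708 libraries had 30.8 to 31.9 CPM. This is 1 of the 2 libraries with fewer reads from long transcripts. The other 5 were marker lists, in mean log2 CPM. In hpCTL replicate 1 the subiculum list was 4.07 against 4.38 to 4.43, and the interferon response list was 3.57 against 4.77 to 4.98. The interferon response list was also low in hp708 replicates 1 and 3, at 3.45 and 3.83, against 4.89 and 4.81 in hp708 replicates 2 and 4. The interneuron list was 7.07 in hpCTL replicate 2 against 7.00 to 7.01, and the oligodendrocyte precursor list was 5.02 in hpCTL replicate 3 against 4.85 to 4.88. The thalamus list was 3.45 in hp708 replicate 2 against 2.49 to 2.63, the library in which 6 of the 10 members had their lowest value.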

How the results depend on the processing

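No setting called a member or a partner gene at an FDR of 0.05, and Adgrl2 and Flrt3 had negative log2 fold changes in every setting run, Adgrl2 between -0.32 and -0.093. In edgeR the genes called at this FDR numbered 0 with no, 1 or 2 surrogate variables, under a minimum of 10 counts per library and in both added settings, 12 without the filter, and 127 by the likelihood ratio test, which called 2 without surrogate variables. DESeq2 called 96 with and 2 without them. Leaving out 1 library gave 0 to 56 calls, 56 without hp708 replicate 1. Members with an unadjusted p below 0.05 numbered 0 with no, 1 or 2 surrogate variables (1.81%, 3.44% and 4.10% of all genes), by the likelihood ratio test or DESeq2 without them (1.56% and 1.84%), and 2 without the filter (5.87%) and with the length covariate (2.84%). Leaving out 1 library gave 0 to 5 members, with surrogate variables 5 without hp708 replicate 1 (all lower, 12.2% of all genes), 4 without hp708 replicate 2 (3 higher, 12.0%), 3 without hp708 replicate 3 (1 higher, 8.02%) or hpCTL replicate 1 (all lower, 9.67%), 1 without hp708 replicate 4 (lower, 8.46%) or hpCTL replicate 2 (higher, 7.04%), and 0 without hpCTL replicate 3 or 4 (2.98% and 6.09%). Partner genes numbered 0 with no or 1 surrogate variable, by the likelihood ratio test or DESeq2 without them and with the length covariate. There was 1, lower in hp708, with 2 surrogate variables and likewise with at least 10 counts. Leaving out 1 library gave 0 to 9 partner genes. With surrogate variables there were 9 without hp708 replicate 2 (8 higher and 1 lower) and 7 without hpCTL replicate 2 (all higher). There were 4 without hp708 replicate 4 (all higher) and 4 without hp708 replicate 1 (2 of them lower). The fit without hpCTL replicate 4 gave 2, those without hpCTL replicate 1 or hp708 replicate 3 gave 1, and that without hpCTL replicate 3 gave 0. The cause was not tested.

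Log2 fold changes turned to 0.00029 for Tenm1 and 0.021 for Flrt1 without the filter and to -0.17 for Tenm2 and -0.085 for Tenm3 with at least 10 counts. In the 2 settings added after the data were seen, they turned with the length covariate to -0.19 for Tenm2, -0.17 for Tenm3, -0.087 for Tenm4, -0.029 for Adgrl1, -0.0014 for Adgrl3 and -0.00027 for Flrt2, and to -0.013 for Flrt2 with both libraries left out. When 1 library was left out they ranged from -0.43 to 0.071 for Tenm1, -0.27 to 0.21 for Tenm2, -0.22 to 0.20 for Tenm3, -0.16 to 0.20 for Tenm4, -0.011 to 0.12 for Adgrl1, -0.076 to 0.32 for Adgrl3, -0.49 to 0.077 for Flrt1 and -0.024 to 0.095 for Flrt2. Replicate numbers did not pair the libraries (correlation of same-numbered libraries -0.041 to 0.018), and in a fit with the replicate block 0 members and 0 partner genes had an unadjusted p below 0.05, with 1 gene called at an FDR of 0.05. With 3 surrogate variables 3 residual degrees of freedom were left.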
